A study of Mus musculus with 12 samples.

Results

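The 10 genes described here were grouped under the axon initial segment and the node of Ranvier: *Cntnap1*, *Cntnap2*, *Cntnap4* (listed as *Caspr4*), *Cntn1*, *Cntn2*, *Nfasc*, *Nrcam*, *Ank2*, *Ank3* and *Sptbn4*. The group is wider than these structures. It also holds proteins found beside the node or along the axon, and *Cntnap4* as a Caspr family member. The 10 genes were chosen by name, and every probeset of the array that carried one of these symbols alone, or an older synonym of it, was taken. All 10 were found among the 20358 genes with a value, on 347 of the 212138 probesets with a single gene symbol. *Sptbn4* stood under its older symbol *Spnb4*. RNA came from primary hippocampal neurons of RjOrl:SWISS mouse embryos (embryonic day 17.5 to 18.5), collected at 6 times in culture between plating (0 days in vitro, DIV) and 15 DIV, namely 0, 1, 3, 6, 12 and 15 DIV, with no treatment under study. The 2 replicate cultures gave 1 array each per time, 12 arrays in all, and the 1 DIV samples are labelled as 20 h after plating. Cytosine arabinoside (1 µM), which kills dividing cells, was added to the cultures at 3 DIV, so the later times differ from the earlier ones in this too.

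The axon initial segment is the stretch of axon next to the cell body where action potentials start. There ankyrin-G, the product of *Ank3*, is tied to the actin cytoskeleton by beta-IV spectrin (*Sptbn4*) and holds voltage-gated sodium and potassium channels together with the adhesion molecules neurofascin (*Nfasc*) and NrCAM (*Nrcam*). The same proteins gather again at nodes of Ranvier once an axon is myelinated. Next to the node, Caspr (*Cntnap1*) and contactin-1 (*Cntn1*) of the axon bind neurofascin of the glial cell, and farther out Caspr2 (*Cntnap2*) and contactin-2 (*Cntn2*, also called TAG-1) keep potassium channels of the Kcna family in place. Ankyrin-B, from *Ank2*, lines the rest of the axon.

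A gene value is the log2 hybridization signal of a gene, summarised from the more variable 50% of its probesets, so a difference of 1 is a doubling of signal. Values of different genes rest on different probes and were not set against each other as levels. The changes below are differences of log2 values, tested for each gene with limma over all 20358 genes. A gene was called changed where its Benjamini-Hochberg adjusted p was under 0.05. These are bulk cultures, in which fewer cells of a type and less RNA per cell cannot be told apart.

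Promoters are shown for the contactin pair and the L1-family pair, since in each pair the members moved in opposite directions. RefSeq (GRCm38.p6) gave a promoter for 7 of the 10 genes. Each run holds 250 bases before and 50 after the most upstream start listed, 5′ to 3′ on the gene's own strand, with CpG dinucleotides in capitals. *Cntn1* lies at chr15:92050915-92051214, plus strand, *Cntn2* at chr1:132542891-132543190, minus strand, *Nrcam* at chr12:44328635-44328934, plus strand and *Nfasc* at chr1:132707277-132707576, minus strand.
*Cntn1*: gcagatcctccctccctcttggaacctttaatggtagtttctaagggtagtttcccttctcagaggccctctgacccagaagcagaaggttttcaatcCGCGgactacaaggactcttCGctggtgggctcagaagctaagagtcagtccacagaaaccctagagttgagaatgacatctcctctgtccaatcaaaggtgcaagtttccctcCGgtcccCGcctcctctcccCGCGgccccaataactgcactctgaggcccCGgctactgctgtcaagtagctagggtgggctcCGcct
*Cntn2*: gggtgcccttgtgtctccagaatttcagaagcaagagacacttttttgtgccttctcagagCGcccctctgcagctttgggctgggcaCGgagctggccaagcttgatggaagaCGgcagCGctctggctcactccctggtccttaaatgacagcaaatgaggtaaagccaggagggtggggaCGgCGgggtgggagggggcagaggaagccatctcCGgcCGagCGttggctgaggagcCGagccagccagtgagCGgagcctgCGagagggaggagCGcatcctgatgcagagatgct
*Nrcam*: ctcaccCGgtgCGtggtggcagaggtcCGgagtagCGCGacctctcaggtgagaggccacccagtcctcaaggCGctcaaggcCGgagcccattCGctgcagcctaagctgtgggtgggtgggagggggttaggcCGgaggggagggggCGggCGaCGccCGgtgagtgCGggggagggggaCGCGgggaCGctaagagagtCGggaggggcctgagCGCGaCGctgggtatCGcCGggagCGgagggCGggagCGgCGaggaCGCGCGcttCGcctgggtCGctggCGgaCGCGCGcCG
*Nfasc*: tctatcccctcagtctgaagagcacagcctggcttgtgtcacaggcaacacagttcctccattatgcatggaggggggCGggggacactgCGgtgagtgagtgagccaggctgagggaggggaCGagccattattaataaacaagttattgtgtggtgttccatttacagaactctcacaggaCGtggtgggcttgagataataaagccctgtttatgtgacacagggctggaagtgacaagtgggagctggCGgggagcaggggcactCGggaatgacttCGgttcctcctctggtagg
The *Nrcam* promoter held 37 CpG, above the third quartile of 20 over all 32851 promoters of the table. *Cntn2* held 13, *Cntn1* 9 and *Nfasc* 7, against a median of 7. Of the motifs searched on both strands, the GC box GGGCGG occurred 2 times in *Nrcam* and 1 time in *Nfasc*, and 35.7% of all promoters hold it. The E-boxes CAGCTG (16.3% of all promoters) and CAGATG (17.2%), the cAMP response element TGACGTCA (1.79%) and the RE1 core TTCAGCACC (0.371%) had no match in these 4 windows. No motif overlapped another there. *Cntn2* and *Nfasc* are neighbours on chromosome 1 in RefSeq, on the same strand, with a single annotated gene between them, the long non-coding RNA *Gm51646*.

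Of the 10 genes, 7 changed over the time course by the F test, at which 22.0% of all genes were called. At 15 DIV 5 were higher than at 0 DIV (16.4% of all genes were called higher) and 2 were lower (8.43% were called lower). *Cntnap1*, *Cntn1*, *Cntnap2*, *Nrcam* and *Ank2* rose, and *Cntn2* and *Nfasc* fell. *Ank3*, *Sptbn4* and *Cntnap4* did not pass the test. The median change of the 10 genes was 0.86 on the log2 scale and that of all genes 0.01. Among all genes called, 66% were higher at 15 DIV, a share that was 49.1% after centring each array on its median and 48.6% after quantile normalization. The 7 calls were kept under both scalings, while *Ank3* was also called, lower, after quantile normalization (-0.54, limma adjusted p = 0.0408).

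**Figure D1:**
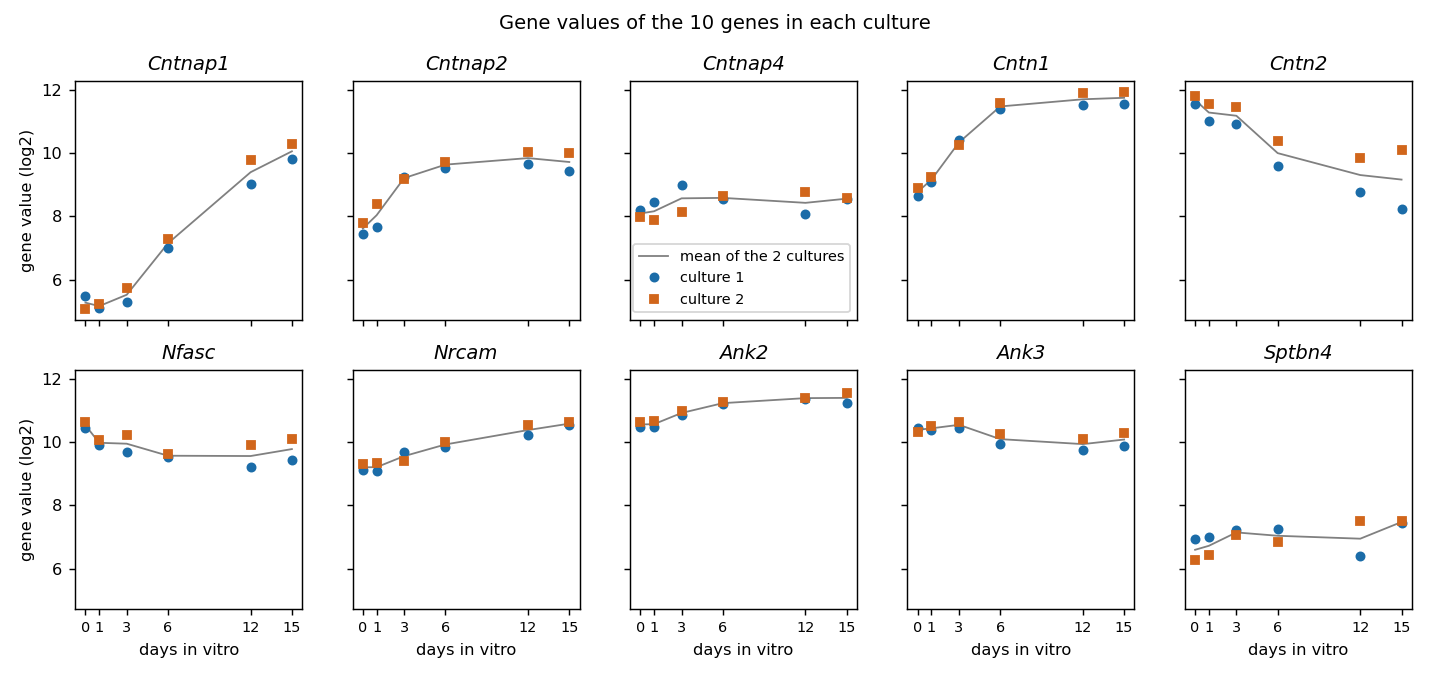
Gene values (log2) of the 10 genes against days in vitro, with circles for culture 1, squares for culture 2 and a line through their mean. *Cntnap1* runs from about 5.27 to 10.06 and is flat until 3 DIV, while *Cntn2* drops from 11.69 to 9.17 and its cultures part, by 1.89 at 15 DIV.

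The Caspr family members are single-pass proteins with large extracellular domains. *Cntnap1* had the largest change of the 10 genes. In culture 1 its gene value was 5.47, 5.09, 5.30, 7.00, 9.02 and 9.83 at 0, 1, 3, 6, 12 and 15 DIV, and in culture 2 it was 5.07, 5.23, 5.74, 7.30, 9.77 and 10.29. The arrays of the 3 earliest times lay within 5.07 and 5.74, and each later time lay above all earlier arrays. The rise from 0 to 15 DIV was 4.79 (SE 0.25, 95% interval 4.24 to 5.34, limma adjusted p = 3.08e-06), from a dim signal at 0 DIV. Summarised over all 25 probesets it was 3.76. It had covered 5.23% of this change at 3 DIV, 39.2% at 6 DIV and 86.2% at 12 DIV. *Cntnap1* was called in the steps from 3 to 6 DIV (1.63, adjusted p = 0.0488) and from 6 to 12 DIV (2.25, adjusted p = 0.0181). Over all probesets the first step was 0.87 and not called (adjusted p = 0.175), and it also missed the threshold after quantile normalization (adjusted p = 0.0552). The first of these calls was also lost without any single array other than those of 12 DIV, and the second without culture 1 at 3 DIV (adjusted p = 0.0506) or without either 6 DIV array.

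*Cntnap2*, whose product gathers potassium channels beside the node, moved earlier. Its gene value was 7.45, 7.67, 9.24, 9.54, 9.65 and 9.44 in culture 1 over the 6 times and 7.78, 8.41, 9.19, 9.73, 10.04 and 10.00 in culture 2. From 3 DIV on, every array lay above every array of 0 and 1 DIV. The rise was 1.60 at 3 DIV (SE 0.21, adjusted p = 0.0035) and 2.11 at 15 DIV (SE 0.21, adjusted p = 6.46e-05). At 3 DIV it thus stood at 75.8% and at 6 DIV at 96.1% of its change at 15 DIV, and the means of 6, 12 and 15 DIV did not differ beyond their 95% intervals. Without culture 1 at 3 DIV, the 3 DIV rise was 1.36 and no longer called (adjusted p = 0.0585). *Cntnap4*, another family member, lay between 7.87 and 8.99 on all 12 arrays, and its change at 15 DIV of 0.47 (95% interval -0.22 to 1.16, adjusted p = 0.313) did not pass. At 3 DIV culture 2 stood at -0.84 relative to culture 1, and a call came when culture 1 at 12 DIV was left out (0.66, adjusted p = 0.0392).

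The contactins are adhesion molecules fixed to the membrane by a lipid anchor. *Cntn1*, the partner of Caspr, gave 8.65, 9.07, 10.41, 11.38, 11.52 and 11.57 in culture 1 and 8.90, 9.25, 10.27, 11.58, 11.89 and 11.94 in culture 2. The cultures differed by at most 0.37 at any time. The rise to 15 DIV was 2.98 (SE 0.19, 95% interval 2.56 to 3.39, adjusted p = 7.33e-06), or 7.88-fold. Most of it lay between 1 and 6 DIV, with a step of 1.18 from 1 to 3 DIV (adjusted p = 0.0449) and of 1.14 from 3 to 6 DIV that did not pass (adjusted p = 0.0625). The call of the first step was lost when any single array other than those of 12 DIV was left out. The means of 6, 12 and 15 DIV were 11.48, 11.71 and 11.75 and did not differ beyond their intervals.

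*Cntn2* encodes TAG-1, an adhesion molecule of growing axons that later joins Caspr2. It ran the other way: 11.55, 11.02, 10.92, 9.61, 8.77 and 8.22 in culture 1 and 11.83, 11.55, 11.46, 10.40, 9.85 and 10.11 in culture 2. All arrays of 6 DIV and later lay below all arrays of 0 to 3 DIV. The difference at 15 DIV was -2.52 (SE 0.32, 95% interval -3.24 to -1.80, adjusted p = 2.90e-04), a 5.74-fold lower signal. Culture 1 fell by 3.33 and culture 2 by 1.71. Culture 2 was higher at all 6 times, by 0.28 at 0 DIV and by 1.89 at 15 DIV. At 6 DIV the difference was -1.68 (adjusted p = 0.0067), a call lost without culture 1 at 0 DIV or culture 2 at 6 DIV. Across the 12 arrays, which share the time course, *Cntn2* correlated with *Ank3* at r = 0.91 and with *Nfasc* at 0.82. Its most negative correlations among the 10 genes were with *Cntnap1* at -0.82, with *Nrcam* at -0.81 and with *Cntn1* at -0.80.

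The L1-family adhesion molecules *Nfasc* and *Nrcam* bind ankyrin-G through the same motif of their inner tail. *Nrcam* gave 9.11, 9.09, 9.70, 9.86, 10.23 and 10.54 in culture 1 and 9.30, 9.33, 9.42, 9.99, 10.54 and 10.63 in culture 2. Both cultures were higher at each of 6, 12 and 15 DIV than at 0 or 1 DIV. The rise at 15 DIV was 1.38 (SE 0.19, adjusted p = 4.82e-04), and at 6 DIV it was 0.72 (adjusted p = 0.0319), a call that ended in 9 of 12 fits with 1 array left out. *Nfasc* was highest at 0 DIV, with 10.43 and 10.63 in cultures 1 and 2. It then read 9.90, 9.68, 9.53, 9.20 and 9.45 in culture 1 and 10.07, 10.23, 9.62, 9.92 and 10.11 in culture 2. No later array reached the level of 0 DIV, and culture 2 was the higher at all 6 times. The difference of *Nfasc* from 0 DIV was already -0.55 at 1 DIV (95% interval -1.02 to -0.08, limma adjusted p = 0.243). It was -0.54 in culture 1 and -0.57 in culture 2. At 3 DIV it was -0.58 (adjusted p = 0.133), and neither time was called. *Nfasc* thus stood at 73.5% of its 15 DIV change at 1 DIV and at 77.4% at 3 DIV. *Nfasc* fell by 0.96 at 6 DIV (SE 0.21, adjusted p = 0.0135), by 0.97 at 12 DIV (adjusted p = 0.0074) and by 0.75 at 15 DIV (adjusted p = 0.0249). Over all probesets the 12 DIV difference was -0.59 (adjusted p = 0.0162). The 6 DIV call was lost without either 0 DIV array or culture 2 at 6 DIV, and the 12 DIV call without culture 1 at 0 DIV or culture 1 at 12 DIV. The call at 15 DIV was lost without either 0 DIV array, culture 1 at 6 DIV or culture 1 at 15 DIV, and the difference without the last was -0.52 (adjusted p = 0.289).

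Ankyrins link membrane proteins to spectrin. *Ank2* gave 10.49, 10.48, 10.86, 11.20, 11.38 and 11.24 in culture 1 and 10.63, 10.66, 10.99, 11.27, 11.41 and 11.56 in culture 2. All arrays from 3 DIV on were above those of 0 and 1 DIV. Its rise was 0.68 at 6 DIV (adjusted p = 0.0258) and 0.84 at 15 DIV (SE 0.17, adjusted p = 0.0047), and the 6 DIV call ended in 6 of 12 fits with 1 array left out. *Ank3*, the organiser of the initial segment, gave 10.45, 10.37, 10.46, 9.95, 9.76 and 9.89 in culture 1 and 10.34, 10.50, 10.64, 10.24, 10.11 and 10.28 in culture 2. All 12 arrays lay within 9.76 and 10.64, and those of 0 to 3 DIV were above those of 6 to 15 DIV. Its change at 15 DIV was -0.31 (95% interval -0.72 to 0.10, adjusted p = 0.267) and did not pass, nor did the F test (adjusted p = 0.136). *Sptbn4* lay between 6.26 and 7.51. Of its 33 probesets 13 were dim (a mean log2 value over the 12 arrays under 7.16, the lowest tertile of all probesets). Its change at 15 DIV was 0.88 (95% interval 0.10 to 1.66, adjusted p = 0.0981), with 0.52 in culture 1 and 1.24 in culture 2. The median change over its 33 probesets was smaller, at 0.37. At 12 DIV the cultures were 1.10 apart, and without culture 1 or culture 2 at 12 DIV the change at 15 DIV was called (0.79, adjusted p = 0.0312, and 0.69, adjusted p = 0.0174).

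**Figure D2:**
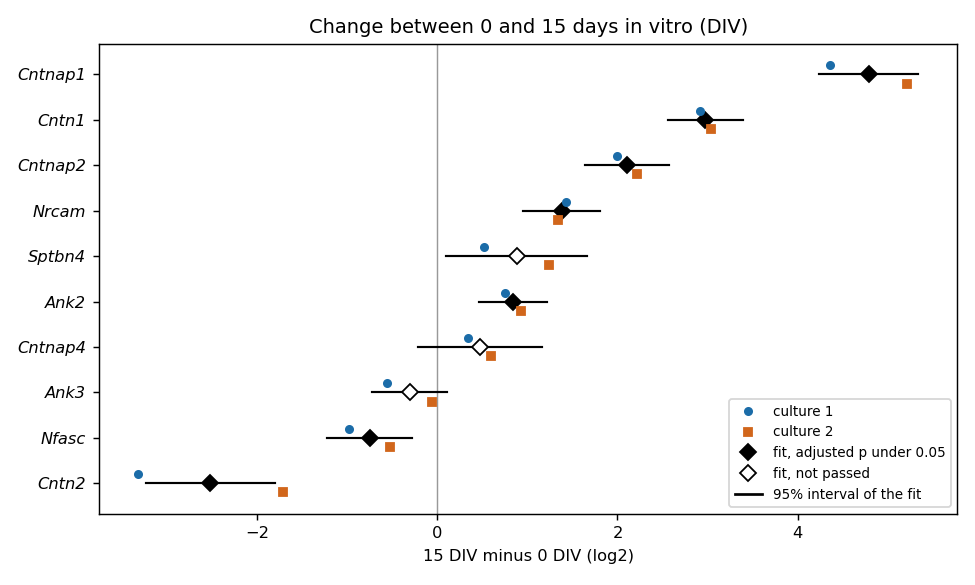
Difference between 15 and 0 DIV (log2) for each gene, with diamonds and bars for the limma estimate and its 95% interval, filled where the adjusted p was under 0.05, and circles and squares for cultures 1 and 2. The estimates run from 4.79 for *Cntnap1* to -2.52 for *Cntn2*. In every gene both cultures lie on the same side of 0, though *Ank3* in culture 2 only by -0.06. In all 10 genes both arrays of 15 DIV lie beyond both arrays of 0 DIV, as in 62.9% of all genes.

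The times at which calls began differed. Each contrast was adjusted on its own, so the cut-off moved with time. A difference in timing between genes was not tested. No gene was called at 1 DIV (1.05% of all genes were called). At an unadjusted p under 0.05 it was 1 of the 10, *Nfasc*, and 16.4% of all genes. At 3 DIV 2 were called, *Cntnap2* and *Cntn1* (6.11% of all genes). At 6 DIV and at 12 DIV the same 7 genes as at 15 DIV were called, 5 higher and 2 lower (13.7% and 24.8% of all genes). Between neighbouring times, 1 gene was called from 1 to 3 DIV (0.177% of all genes), 1 from 3 to 6 DIV (0.108%), 1 from 6 to 12 DIV (0.0295%) and none from 12 to 15 DIV (0% of all genes). At an unadjusted p under 0.05 this last step held 1 of the 10, *Cntnap1*, and 4.48% of all genes.

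Related genes were also compared directly, by the difference of their changes on the same arrays. The 95% intervals rest on each pair's own 5 residual degrees of freedom. *Cntnap1* rose by 2.69 more than *Cntnap2* (1.78 to 3.59), with 2.37 and 3.00 in cultures 1 and 2. The change of *Cntn1* exceeded that of *Cntn2* by 5.50 (4.60 to 6.40), with 6.24 and 4.75. *Ank3* less *Ank2* was -1.15 (-1.52 to -0.78), with -1.31 and -0.99, and *Nfasc* less *Nrcam* was -2.13 (-2.82 to -1.45), with -2.41 and -1.86. All 4 intervals lay on one side of 0.

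The array carries many probesets per gene, most of them within an exon, and each was tested over all 212138. Of the 347 probesets, 87 were higher at 15 than at 0 DIV (7.22% of all probesets were called higher) and 27 were lower (2.64%), while 233 did not pass. The calls followed the genes. Of the *Cntnap1* probesets 23 of 25 were higher, of *Cntn1* 24 of 26, of *Cntnap2* 16 of 28, of *Nrcam* 13 of 36, of *Ank2* 8 of 54 and of *Sptbn4* 3 of 33, and 23 of 30 *Cntn2* probesets were lower. None of the 25 *Cntnap4* probesets passed. All 25 *Cntnap1* probesets had a positive difference, from 1.25 to 6.61, though 10 of them were dim, and all 30 of *Cntn2* a negative one, from -3.27 to -0.02.

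**Figure D3:**
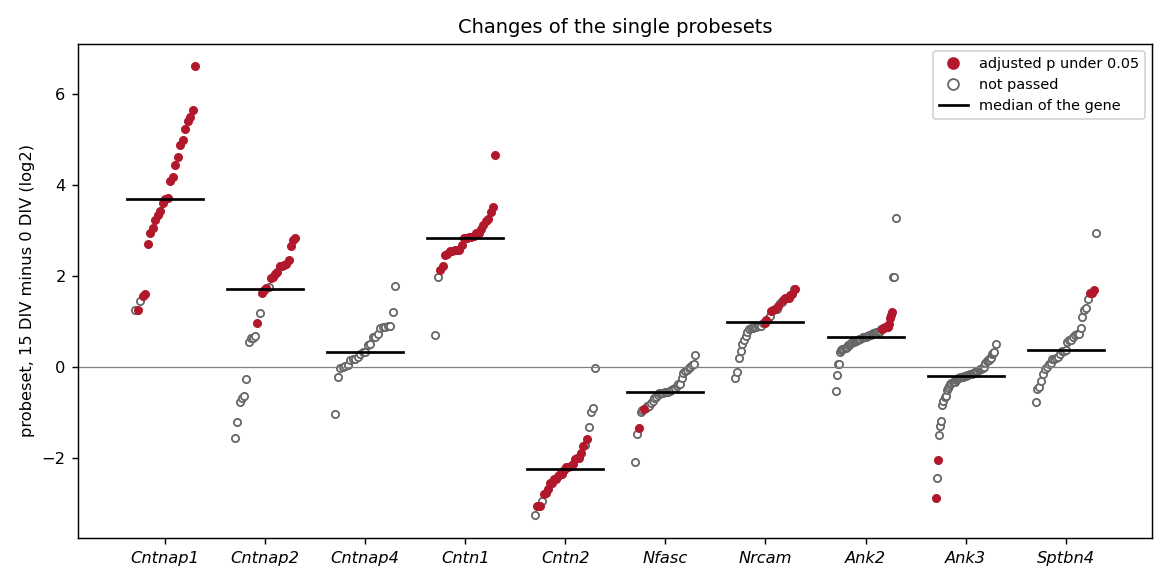
Difference between 15 and 0 DIV (log2) of every probeset, ordered by size within each gene, filled where the limma adjusted p was under 0.05, with a bar at the gene's median. The medians run from 3.71 for *Cntnap1* to -2.24 for *Cntn2*, and only *Cntnap1*, *Cntn1* and *Cntn2* have all their probesets on one side of 0.

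In *Ank3*, 44 of 54 probesets had a negative difference, and the median was -0.20. Probesets 10363829 and 10363834 were called lower. Over the 6 times, probeset 10363829 gave 10.99, 10.45, 10.27, 8.11, 6.18 and 7.25 in culture 1 and 10.39, 10.06, 10.43, 8.45, 8.22 and 8.34 in culture 2. Every array from 6 DIV on was below every earlier one, and the difference at 15 DIV was -2.89 (SE 0.57, adjusted p = 0.0189). Probeset 10363834 ran alike, with means of 9.79, 9.60, 8.90, 7.94, 7.49 and 7.75 over the 6 times and a difference of -2.05 (SE 0.42, adjusted p = 0.0204). Each call ended when 1 of 3 arrays of 0 or 15 DIV was left out, at differences from -3.28 to -1.49. The second largest fall, of probeset 10363812 (-2.45, adjusted p = 0.238), rested on culture 1 at 15 DIV, which read 5.13 while culture 2 read 9.99. The largest differences upward were 0.50 (10363819), 0.34 (10363824) and 0.31 (10363818), and none passed.

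Measured against the median of the gene's probesets on the same array, 10363829 departed by -2.68 (SE 0.57, adjusted p = 0.164), 10363812 by -2.24 and 10363834 by -1.84 (SE 0.41, adjusted p = 0.178). Upward the largest departures were those of the 3 probesets just named, from 0.51 to 0.71. No *Ank3* probeset passed this test, which called 0.0246% of the 203477 probesets of genes with at least 4. At an unadjusted p under 0.05 there were 7 of 54, where 10.5% of all probesets were. The diffSplice test of limma, which scales each probeset by its own gene's variance and called 1.53% of all its probesets, called all 3 of the falling ones. Of these, 10363812 depended on 1 array: without culture 1 at 15 DIV its departure was 0.03.

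*Nfasc* was more even. Of its 36 probesets 33 had a negative difference, with a median of -0.56. The 2 called were 10357748 (-1.34, SE 0.30, adjusted p = 0.0295), which was dim, and 10357762 (-0.94, adjusted p = 0.0254). Probeset 10357748 gave 7.87, 6.91, 6.72, 5.87, 5.80 and 6.06 in culture 1 and 7.24, 7.52, 7.00, 6.20, 5.90 and 6.36 in culture 2. Its arrays from 6 DIV on were again below all earlier ones. The call ended in 5 of the 12 fits with 1 array left out, and without culture 1 at 0 DIV the difference was -0.87. The largest fall, -2.09 for 10357739 (adjusted p = 0.156), and that of 10357761, -1.48 (adjusted p = 0.131), came mainly from culture 1 at 15 DIV, with 6.03 and 7.29 against 9.30 and 9.76 in culture 2. Upward, 10357771 stood at 0.27, 10357769 at 0.06 and 10357768 at 0.04. Relative to the gene's median the departures ran from -1.59 (10357739) to 0.78 (10357771), none passed, and 3 of 36 had an unadjusted p under 0.05. The diffSplice test called 10357739, whose departure was 0.01 without culture 1 at 15 DIV.

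**Figure D4:**
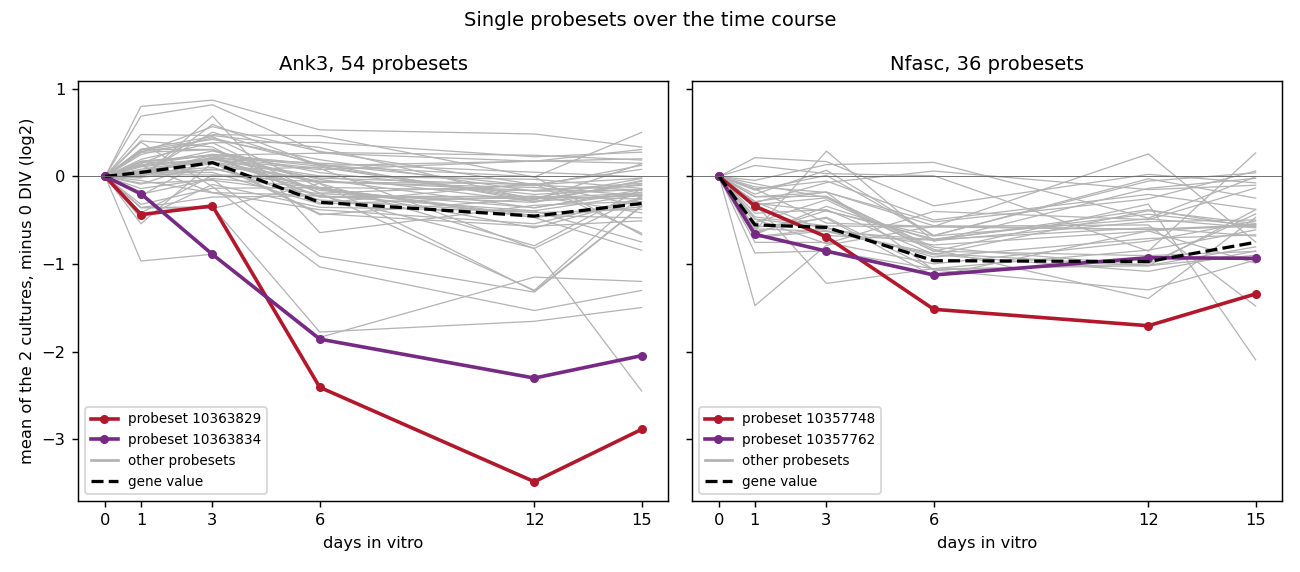
Each line is a probeset of *Ank3* or *Nfasc*, as the mean of the 2 cultures minus its value at 0 DIV (log2), against days in vitro. The called probesets are in colour and the gene value is dashed. In *Ank3* most lines stay near 0 while 10363829 reaches -2.89 at 15 DIV, and in *Nfasc* most lines lie below 0 from 6 DIV on.

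Outside *Ank3* and *Nfasc*, 4 probesets passed the test against their gene's median, and they are named here because they did. Probesets 10537875, 10537876 and 10537877 of *Cntnap2* carry consecutive numbers. They were bright at 0 DIV, at 9.63, 9.36 and 11.22, and stood at 8.85, 8.67 and 10.58 at 15 DIV, while the gene rose. Their own differences of -0.78, -0.69 and -0.64 did not pass. Against the gene's median they departed by -2.29, -2.20 and -2.15 (adjusted p = 0.0435, 0.0470 and 0.0469). The next in number, 10537878, read 10.82 at 0 DIV and 9.25 at 15 DIV and departed by -3.08 without passing (adjusted p = 0.0665). In *Cntnap1*, 10381291 rose by 1.61, less than its gene (departure -2.73, adjusted p = 0.0470). All 4 calls ended when any 1 of the 12 arrays was left out, at adjusted p from 0.0608 to 0.512. diffSplice called the 3 *Cntnap2* probesets and not 10381291 (adjusted p = 0.0770).

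The other genes of these structures came from lists chosen for their known place, with earlier results of these data known. Those called changed were mostly higher at 15 DIV. Of 14 channel genes 11 were higher at 15 DIV and none was lower, against 16.4% and 8.43% of all genes, and the median change was 1.64. The sodium channel beta subunit *Scn2b* rose by 3.66 (adjusted p = 6.28e-06), *Kcnab2*, a beta subunit of Kcna channels, by 3.04 and *Kcna1*, a potassium channel found beside nodes, by 2.40. The main sodium channels of the initial segment, *Scn2a* and *Scn8a*, rose by 2.00 and 1.40. *Kcnq3*, which ankyrin-G also holds, changed by 0.30 (adjusted p = 0.365).

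Among 13 cytoskeletal genes 5 were higher and none lower, with a median of 0.34. *Synpo*, the synaptopodin of the cisternal organelle and of dendritic spines, rose by 2.94 (1.26 over all its probesets), *Epb41l1*, a protein 4.1 family member, by 1.14 and *Ndel1*, a dynein regulator, by 0.96, a call lost without either 15 DIV array. *Trim46*, which bundles microtubules at the initial segment, changed by 0.34 (adjusted p = 0.286). Of 11 further genes of the members' families 7 were higher and none lower, with a median of 0.88. The contactins *Cntn4*, *Cntn6* and *Cntn5* rose by 2.58, 1.68 and 1.30, the call of *Cntn6* ending without culture 1 at 0 DIV or culture 2 at 15 DIV. The signal of *Cntn6* was dim, at 4.91 at 0 DIV and 6.59 at 15 DIV. Of 10 extracellular partners 6 were higher and 1 was lower, with a median of 0.89. *Hapln1*, a link protein of the matrix, rose by 3.66 (2.44 over all its probesets), *Lgi1*, a secreted ligand of Adam22, by 2.77 and the matrix proteoglycan *Bcan* by 2.51, while the proteoglycan *Vcan* fell by 1.69 (adjusted p = 0.0020). *L1cam* and *Chl1*, the other L1-family genes, changed by 0.19 (adjusted p = 0.50) and -0.48 (adjusted p = 0.106).

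**Figure D5:**
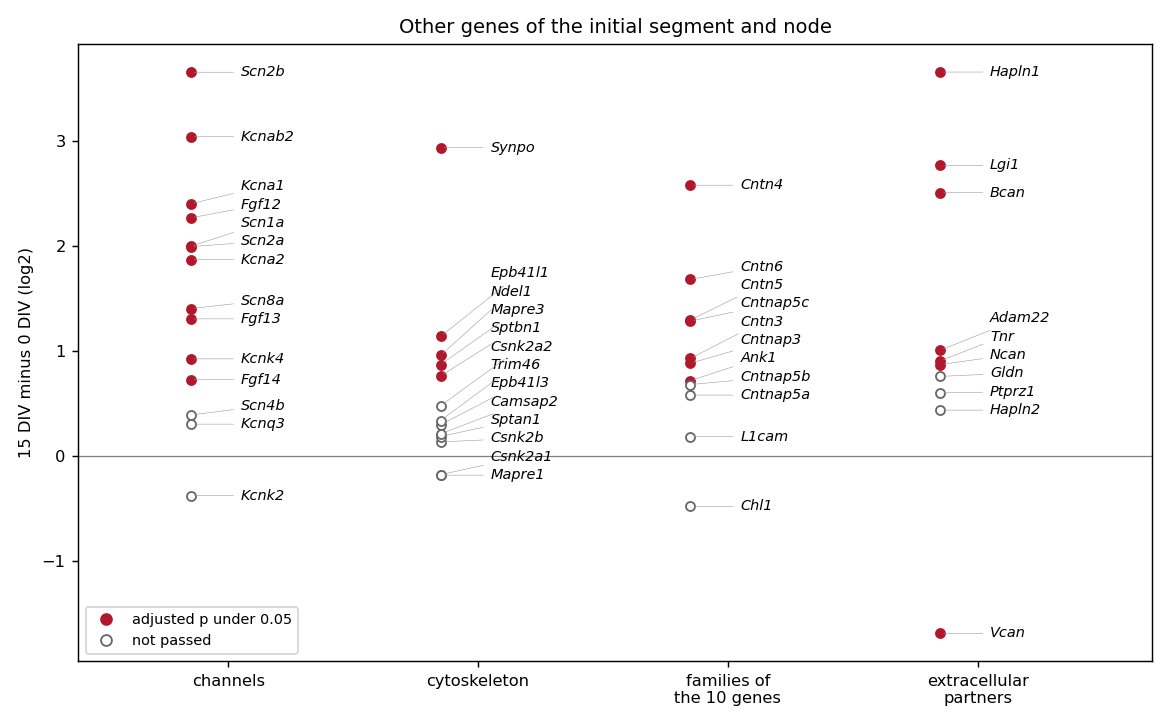
Difference between 15 and 0 DIV (log2) of every measured gene of the 4 lists, filled where the limma adjusted p was under 0.05. The channel list reaches 3.66 with *Scn2b*, and *Vcan* at -1.69 is the one filled point below 0.

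Marker RNA of several cell types also changed over the same times. Neuronal markers were present at 0 DIV (*Tubb3* 12.91, *Map2* 11.49). At 15 DIV 4 of 7 were higher, namely *Syt1*, *Snap25*, *Nefl* and *Nefm*. *Tubb3*, *Map2* and *Stmn2* did not pass (differences -0.55, 0.02 and 0.18). Summed levels here are the log2 of the added signals of a cell type's markers, so the brightest markers weigh most. The summed level of the neuronal markers was 14.00 and 14.06 at 0 DIV and 14.64 and 14.67 at 15 DIV (log2). Of the oligodendrocyte precursor markers 5 of 5 were higher, whose summed level was 9.22 and 9.33 at 0 DIV and 12.24 and 12.38 at 15 DIV (log2). Markers of myelinating oligodendrocytes were higher in 3 of 6, with a sum of 9.26 on both arrays of 0 DIV and of 9.94 to 10.41 at 15 DIV, and the 3 were *Mbp* (1.54), *Cnp* (1.43) and *Ugt8a* (1.29). The other 3, *Mag*, *Mog* and *Mobp*, stood at 6.05, 6.58 and 5.95 at 15 DIV and did not pass (differences -0.17, -0.18 and -0.61). Astrocyte markers were higher in 5 of 7, with sums of 10.79 to 11.13 and then 12.76 to 13.24. Lower at 15 DIV were 4 of 5 microglial markers (sums of 10.59 and 10.90, then 9.38 and 9.44), 4 of 4 endothelial and mural markers (9.77 and 9.89, then 8.23 and 8.50) and 3 of 5 progenitor markers (12.23 on both arrays, then 9.97 and 10.89). Among the progenitor markers, *Sox2* and *Hes5* did not pass (differences 0.25 and 0.42). Oligodendrocytes and their precursors also make *Nfasc*, *Cntn1* and several of the matrix genes. Markers of bulk RNA cannot tell a change in cell numbers from one in RNA per cell. The part of these marker shifts in the changes of the 10 genes was not tested.

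The genes most like 4 of the 10 over the 12 arrays, by Pearson's r of gene values, are given as a description. They were *Slc17a7*, the vesicular glutamate transporter (r = 0.993), *Rasal1* (0.986) and *Sdha* (0.985) for *Cntnap1*. For *Cntn2* they were *Fbxo11* (0.991), the ephrin receptor *Ephb2* (0.981) and *Clasp1* (0.981). For *Ank3* they were *Kmt2b* (0.962), *Pcdhgb6* (0.957) and *Lrig2* (0.952), and for *Nfasc* *Disp3* (0.987), *Brsk2* (0.950) and *Ighv3-5* (0.948). Arrays of a time share its stage of culture, so the 12 points are not independent.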

How the data were processed

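Amplified and labelled total RNA of the 12 samples was measured on Affymetrix Mouse Gene ST arrays. The deposited values are log2 signals per probeset, which the authors made with RMA (background correction, quantile normalization and probe summary, version not given in the sources used here). Left out were 4672 probesets annotated to several genes and 24766 without annotation, and 2743 outdated symbols were updated through RefSeq. Following the methods, a gene's value is the median polish of its most variable 50% of probesets (by interquartile range). These were chosen on the same 12 arrays, which can enlarge changes. The change at 15 DIV was 4.79 for *Cntnap1* against a median of 3.71 over its probesets. For *Cntnap2* it was 2.11 against 1.71, for *Nrcam* 1.38 against 0.99 and for *Cntn1* 2.98 against 2.84. It was 0.88 against 0.37 for *Sptbn4*, 0.84 against 0.66 for *Ank2* and 0.47 against 0.33 for *Cntnap4*. Of the falling genes, *Cntn2* stood at -2.52 against -2.24, *Nfasc* at -0.75 against -0.56 and *Ank3* at -0.31 against -0.20. The number of arrays limits the precision. Array medians were 7.35 to 7.57, and the 2 arrays of a time correlated at 0.944 to 0.979.

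Each gene was fitted with limma 3.58.1 in R 4.3.3, with a factor for time and a block for replicate (5 residual and 5.64 prior degrees of freedom), and two-sided p-values were adjusted by Benjamini-Hochberg over all genes or probesets. The pairing rests on the labels' replicate numbers and on the methods' term for the date of the experiment. Deviations of same-numbered arrays correlated between times at a median of 0.30 (0.11 to 0.46 over 15 pairs of times). The methods call the 2 replicas independent. For pairs of related genes, subtracting 1 gene from all others gave every gene the same noise, so the moderated p-values of the planned fit are not given and unmoderated 95% intervals were used, a choice made after seeing the data. The procedure was also run on simulated data, whose outcome is not given here, so nothing is concluded from it. Figures were drawn with matplotlib 3.10.9 (Python 3.11.15).

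The 10 genes, the lists and the alternatives were chosen with earlier results of these data known. Named were all 10 genes, for *Ank3* and *Nfasc* the 3 probesets with the largest rise, fall and departure each way, up to 3 called genes each way per list, and the 3 genes most like each of 4 of the 10. Genes and probesets named beyond this rule were chosen after their values were seen. Alternatives were no replicate block, all probesets or their mean, quantile normalization, centring, leaving out the dimmest tertile, robust variances with an intensity trend, a fit of 0 and 15 DIV alone, other tests of probesets, and leaving out each array.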

Additional observations from a re-analysis of the deposited data

How the results depend on the processing

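Over 23 alternatives, 12 of which left out 1 array each, *Cntnap1*, *Cntnap2*, *Cntn1*, *Nrcam*, *Ank2* and *Cntn2* kept their direction and their call at 15 DIV in all 20 that gave a value. *Nfasc* kept its direction in 20 and its call in 15. *Ank3* was called lower in 2 (quantile normalization, and the mean of the chosen probesets at -0.60), *Sptbn4* higher in 3 and *Cntnap4* higher in 1. The differences between paired genes kept their sign throughout. Centring each array moved the median of all genes by -0.16.

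Without the replicate block, 1 of the 10 genes was lower at 15 DIV (*Nfasc* at an adjusted p of 0.117), 3 changed at 6 DIV, 16 probesets were lower, and 0 genes changed in the steps from 1 to 3, 3 to 6 or 6 to 12 DIV. The intensity trend with robust variances and leaving out the dimmest tertile each gave 2 genes for the step from 1 to 3 DIV and 2 for 3 to 6 DIV, and centring gave 0 for 3 to 6 DIV. diffSplice called 3 *Ank3* probesets and 1 of *Nfasc*. The alternatives reversed the small differences of probeset 10357768 (-0.1210 with centring, and -0.3188 to 0.4023 with 1 array left out) and 10357769 (-0.1007 with centring, and -0.0690 to 0.1932). Relative to the gene, 10363812 ranged from -4.5144 to 0.0252 and 10357739 from -3.1828 to 0.0121, positive without culture 1 at 15 DIV. The cause was not tested.

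Leaving out 1 array at a time gave 1 to 2 genes lower at 15 DIV, 1 to 2 changed at 3 DIV, 3 to 8 at 6 DIV, 0 to 1 from 1 to 3 DIV, 0 to 2 from 3 to 6 DIV, 0 to 1 from 6 to 12 DIV and 0 to 1 from 12 to 15 DIV. It gave 3 to 7 called family genes, 3 to 6 called cytoskeletal genes, 51 to 101 probesets higher (51 without culture 2 at 15 DIV) and 2 to 35 lower (2 without culture 1 at 0 DIV). With 2 arrays per time, the calls of single steps and single probesets are the least settled. Dim probesets, by their mean over the 12 arrays, limit *Cntnap1* (10 of 25) and *Sptbn4* (13 of 33) most. In *Cntnap1* this mean takes in the low early signal. Its probeset with the largest rise, 10381277, counts as dim though it read 3.52 at 0 DIV and 10.13 at 15 DIV.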
